A study of Mus musculus with 9 samples.

Results

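Integrins are the receptors by which cells hold their matrix, and laminins are the basement membrane proteins that many of them hold. Of the 22609 genes listed in each of the 9 libraries, 38 were integrin or laminin chains: 27 integrin genes (symbols beginning Itga or Itgb) and 11 laminin genes (Lama, Lamb or Lamc with a digit). They were chosen by symbol alone, leaving out binding proteins and Itgbl1. Counts of poly(A) RNA were compared across 3 groups of 3 tumors grown from 4T1, a mouse mammary carcinoma line labelled as triple-negative breast cancer, set into the mammary fat pad of mice of the BALB/c strain. LFD mice ate a diet with 10 kcal% fat from 6 weeks before the cells were injected and were given vehicle, hydroxy propyl cellulose. HFD mice ate a diet with 60 kcal% fat over the same time and were given the same vehicle. HFD+EC359 mice ate the 60 kcal% diet and were given EC359, an inhibitor of the leukemia inhibitory factor receptor (LIFR), intraperitoneally at 5 mg/kg on 5 days a week. No group had EC359 on the low-fat diet, so HFD+EC359 against LFD changes diet and drug together. All tumors came from 1 cell line in a host of its own strain. The RNA therefore mixes tumor cells with host stroma and leukocytes of the same species. The labels give no age or sex for these mice.

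An integrin is a pair of 1 alpha and 1 beta chain, and the pair decides what it binds. The alpha 3, 6 and 7 chains with beta 1, and alpha 6 with beta 4, bind laminins. The alpha 1, 2, 10 and 11 chains with beta 1 bind collagens. Alpha 5, 8 and V and the platelet chain alpha IIb, with beta 1, 3, 5, 6 or 8, bind matrix proteins such as fibronectin and vitronectin through a short RGD motif. The beta 2 integrins are leukocyte receptors. A laminin is a trimer of an alpha, a beta and a gamma chain. Laminin-332, whose alpha and beta chains are those of Lama3 and Lamb3, lies under mammary myoepithelium and epidermis, where integrin alpha 6 beta 4 binds it in hemidesmosomes. Laminins with the Lama4 or Lama5 chain lie under blood vessels, and those with Lama2 surround muscle.

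RefSeq promoter sequences on GRCm38.p6 were at hand for 24 of the 38 genes, in 27 windows. Those printed here are the 250 bases before the start of Lamb3 (chr1:193301744-193301993, plus strand), the chain that fell most with the high-fat diet, of Lama5 (chr2:180225860-180226109, minus strand), the most abundant chain, and of Itga11 (chr9:62677605-62677854, plus strand), the chain that fell most with EC359. Capitals mark matches, on either strand, to 6 motifs, none of which contains another. They were TGANTCA for the AP-1 factors, GGAATG for the TEAD factors, the E2-box CACCTG bound by repressors of the Snail and Zeb families, the GC-box GGGCGG bound by Sp factors, TATAAA for the element near many start sites, and TTCNNNGAA for the STAT factors.
Lamb3: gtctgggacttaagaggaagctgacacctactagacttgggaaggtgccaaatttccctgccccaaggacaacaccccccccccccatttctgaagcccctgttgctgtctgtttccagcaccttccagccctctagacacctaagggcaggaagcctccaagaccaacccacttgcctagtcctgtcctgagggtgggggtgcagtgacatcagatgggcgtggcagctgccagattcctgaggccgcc
Lama5: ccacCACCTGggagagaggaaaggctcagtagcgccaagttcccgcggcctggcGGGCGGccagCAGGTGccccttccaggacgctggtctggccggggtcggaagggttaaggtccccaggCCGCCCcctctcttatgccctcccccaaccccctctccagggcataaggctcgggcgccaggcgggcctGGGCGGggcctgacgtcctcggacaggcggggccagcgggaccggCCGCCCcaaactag
Itga11: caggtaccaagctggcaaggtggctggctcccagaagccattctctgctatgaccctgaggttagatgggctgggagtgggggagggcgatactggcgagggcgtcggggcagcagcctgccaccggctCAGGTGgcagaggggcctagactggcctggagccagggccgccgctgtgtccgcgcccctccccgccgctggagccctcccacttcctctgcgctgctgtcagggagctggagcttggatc
The Lamb3 window held none of the 6, while a window at a second, downstream start of Lamb3, which is not printed, held the TEAD motif and the E2-box. For the others, the Lama5 window held the E2-box and the GC-box, and the Itga11 window held the E2-box. The E2-box was in 8 of the 27 windows, against 17.2% of 32851 promoters of this length, and the GC-box in 9, against 32.7%. The STAT motif was in 2 of the 27, against 7.02%, TEAD in 3, against 12.6%, AP-1 in 1, against 6.75%, and TATA in none, against 12.4%. A match describes letters and is not evidence of binding.

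Library totals ran from 5085357 to 6509130 counts in LFD, 7314704 to 7922852 in HFD and 8043649 to 9751201 in HFD+EC359. Per 1000000 of these totals, before any scaling, 3 counts correspond to between 0.308 and 0.590. CPM are counts per 1000000 of the library total, here scaled by edgeR's TMM factors. Libraries of a group lay close together: the common biological coefficient of variation was 3.63%, and the mean chi-square per gene between libraries of a group, which is 1 for counting noise alone, was 1.36 to 1.57 in 7 of 9 pairs. LFD replicate 1 stood further from its group, at 3.10 and 2.54. Without it, 4 member calls were gained and none was lost. The series describes 9 tumors, but no label ties a library to an animal, so p-values measure the spread between these libraries, which may be partly technical. The tumors held transcripts of many cell types. Summed over 6 epithelial marker genes, levels were 2056 to 2223 CPM in LFD, 772 to 786 in HFD and 1143 to 1169 in HFD+EC359.

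Of the 38 genes, 35 had enough counts to be tested. Lama1, an embryonic laminin chain, had 0 to 5 counts in the LFD libraries, 6 to 7 in HFD and 11 to 23 in HFD+EC359. Itgad and Itgb2l, both leukocyte integrin chains, had at most 3 and 5 counts in any library. With the high-fat diet (HFD against LFD), 12 tested members rose and 18 fell past an adjusted p of 0.05, so that 85.7% were called, while 51.8% of all 13366 tested genes were called (26.0% higher and 25.8% lower). The libraries of the 2 groups did not overlap for 30 members, against 57.1% of all genes. These shares were not matched on expression level. The stricter limits the study used, over 2-fold with an adjusted p below 0.01, were passed by 8 members, against 5.71% of all genes. The 2 that were higher, against 3.03% of all genes, were Itga8 and Itga11, and the 6 that were lower, against 2.68%, included Lamb3, Lamc3, Lama3, Itgb8 and Itgae.

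With EC359 on the same diet (HFD+EC359 against HFD), 12 members were higher and 11 lower, against 12.7% and 13.9% of all genes (26.6% in either direction), and 31 members did not overlap, against 41.3%. The stricter limits were passed by 6, against 3.43%. Of these, 5 were higher (among them Lamb3, Lama3, Itgb6 and Itgae), against 2.06% of all genes, and 1 was lower (Itga11), against 1.38%. Against LFD, HFD+EC359 had 10 members higher and 12 lower, against 29.2% and 29.1% (58.3% in either direction). Of all genes, 62.9% did not overlap there, and of the members 26. The 3 that passed the stricter limits, against 5.09%, were all lower (1.43% of all genes were lower and 3.66% higher), and they were Itga7, Itgb8 and Lamc3. The median log2 fold change of the members was -0.12, 0.07 and -0.10 in these 3 comparisons in turn, beside 0.01, 0.01 and 0.01 for all tested genes. All 3 comparisons share libraries, so the directions of 1 member across them are not independent.

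**Figure D1:**
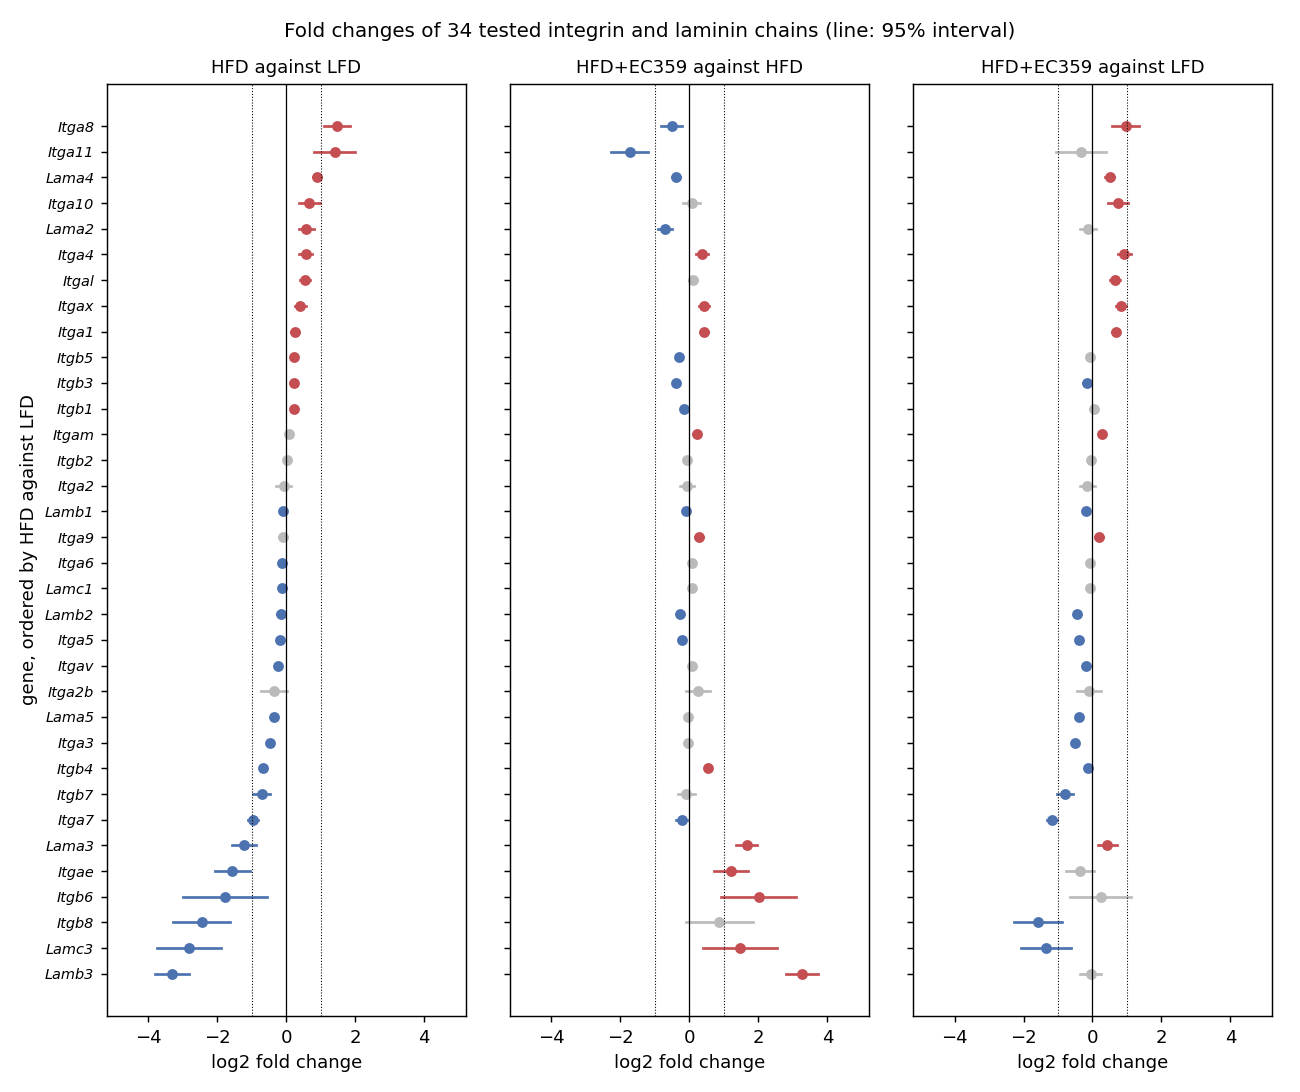
Log2 fold change (x axis) of 34 of the 35 tested genes (y axis, ordered by HFD against LFD) in the 3 comparisons, with points for estimates, lines for 95% intervals, red for higher and blue for lower at an adjusted p below 0.05, grey for the rest, and dotted lines at a 2-fold change. Lamb3 and Lama3 lie far to the left in the first panel and far to the right in the second. With the GC and length trend removed, of the genes called with or without the trend, Itga1, Itga5, Itgb1 and Lamb2 changed side in the first panel, Lama5 in the second, and Itgb1, Itgb4 and Itgb5 in the third.

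Lama3 and Lamb3 were lower in every HFD library than in any LFD library, and higher in every HFD+EC359 library than in any HFD library. Of all tested members, Lamb3 had the largest change in each of these 2 comparisons. Lamb3, the beta chain of laminin-332, was at 11.7, 12.2 and 10.4 CPM in the LFD libraries, at 1.01, 1.31 and 1.09 in HFD and at 13.1, 10.4 and 9.90 in HFD+EC359. The HFD libraries stood apart from both other groups, which overlapped. Lamb3 was thus 9.95-fold lower with the high-fat diet (log2 fold change -3.32, SE 0.243, adjusted p = 4.73e-13) and 9.61-fold higher with EC359 (3.26, SE 0.230, adjusted p = 2.80e-13). Between HFD+EC359 and LFD it differed by -0.05 (95% interval -0.35 to 0.25, adjusted p = 0.787). The HFD values rest on 8, 10 and 8 counts.

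Lama3, the alpha chain, changed by a smaller fold than Lamb3 in both comparisons. Its levels were 12.7, 12.2 and 11.6 CPM in LFD, 6.18, 4.98 and 4.22 in HFD, and 15.4, 18.5 and 15.3 in HFD+EC359. All HFD+EC359 libraries were above all LFD libraries. The log2 fold changes were -1.24 (SE 0.172, adjusted p = 3.40e-07) with HFD, 1.67 (SE 0.150, adjusted p = 1.16e-10) with EC359 and 0.43 (adjusted p = 0.00682) between HFD+EC359 and LFD, the last lost without HFD+EC359 replicate 2 (0.33, adjusted p = 0.0555).

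**Figure D2:**
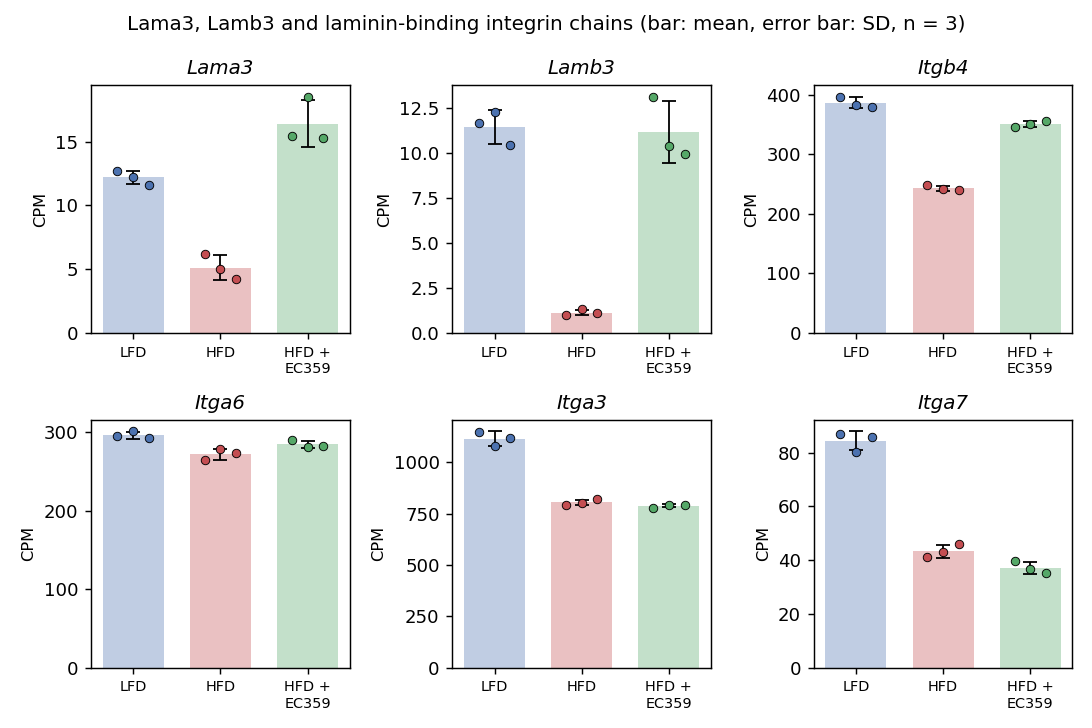
CPM (y axis, from 0) of Lama3, Lamb3 and the 4 laminin-binding integrin chains Itgb4, Itga6, Itga3 and Itga7 in the 3 groups, with 1 point per library, bars for means and error bars for SD (n = 3). The HFD points of Lama3, Lamb3, Itgb4 and, by little, Itga6 lie below all points of the other groups, and those of Itga3 and Itga7 lie below LFD only.

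Of the integrin chains that bind laminins, all 4 were lower with HFD, where 25.8% of all genes were, and none changed by over 2-fold with diet. Itgb4, the hemidesmosome beta chain that pairs with alpha 6 alone, was at 397, 383 and 380 CPM in LFD, 248, 241 and 240 in HFD, and 347, 351 and 356 in HFD+EC359. The 3 groups did not overlap. It was 1.59-fold lower with HFD (-0.67, SE 0.0376, adjusted p = 7.25e-16) and 1.44-fold higher with EC359 (0.53, SE 0.0367, adjusted p = 2.02e-13). HFD+EC359 against LFD gave -0.14 (adjusted p = 0.0016), which turned to 0.19 (adjusted p = 1.10e-05) once the GC and length trend was removed and was not called with library totals as the scale (-0.06, adjusted p = 0.133). Itga6, its partner, which also pairs with beta 1, was at 292 to 301 CPM in LFD, 264 to 278 in HFD and 281 to 290 in HFD+EC359. Its fall with HFD was small (-0.12, adjusted p = 0.00728). It was not called without HFD replicate 1 (-0.10, adjusted p = 0.0511) or with library totals as the scale (-0.08, adjusted p = 0.0747). Its change with EC359 was 0.07 (interval -0.01 to 0.14, adjusted p = 0.20), called only with library totals (0.10, adjusted p = 0.0466).

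Itga3 and Itga7 were lower with HFD and were also below LFD in HFD+EC359. Itga3, a laminin-binding alpha chain of epithelia, was at 1148, 1079 and 1118 CPM in LFD, 794, 800.3 and 820 in HFD, and 779, 793 and 792 in HFD+EC359. It was lower with HFD by 1.39-fold (-0.47, SE 0.0314, adjusted p = 4.75e-14), and EC359 against HFD gave -0.03 (interval -0.09 to 0.03, adjusted p = 0.533). Itga7, best known from muscle, was at 87.0, 80.4 and 85.7 CPM in LFD, 41.1, 43.0 and 45.9 in HFD, and 39.5, 36.6 and 35.1 in HFD+EC359. It was lower by 0.96 on the log2 scale with HFD (-0.96, SE 0.0710, adjusted p = 5.85e-13) and by 1.19 between HFD+EC359 and LFD (-1.19, adjusted p = 1.80e-15). Its further fall with EC359 (-0.23, adjusted p = 0.0223) was not called without HFD replicate 3 (-0.19, adjusted p = 0.110) or HFD+EC359 replicate 2 (-0.22, adjusted p = 0.0675) or 3 (-0.19, adjusted p = 0.105), nor with DESeq2 (adjusted p = 0.0519), library totals as the scale (adjusted p = 0.0501) or the GC and length trend removed (adjusted p = 0.0601).

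The genes of the hemidesmosome that are not integrins or laminins were Plec, Dst, Cd151 and Col17a1. With HFD, 3 of the 4 were lower and 1 higher, where 25.8% and 26.0% of all genes were. With EC359, 2 were higher and 1 lower, where 12.7% and 13.9% of all genes were. Col17a1, the transmembrane collagen of hemidesmosomes, was at 50.5, 48.8 and 48.8 CPM in LFD, 8.45, 8.78 and 8.995 in HFD, and 47.7, 46.8 and 49.2 in HFD+EC359. Its log2 fold changes were -2.50 with HFD (adjusted p = 1.25e-19), 2.45 with EC359 (adjusted p = 6.31e-20) and -0.04 between HFD+EC359 and LFD (adjusted p = 0.651). The cytoskeletal linkers differed from it. Plec was lower with HFD (-0.59, adjusted p = 3.08e-17) and lower again with EC359 (-0.13, adjusted p = 0.000763), while Dst was higher in both (0.13, adjusted p = 0.000434, and 0.16, adjusted p = 7.66e-05). Cd151, the tetraspanin of laminin-binding integrins, was lower with HFD (-0.19, adjusted p = 0.00242) and gave 0.09 with EC359 (adjusted p = 0.217).

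Epithelial marker genes moved the same way as Lama3, Lamb3 and Itgb4. All 6 were lower with HFD and 5 of 6 higher with EC359, where 25.8% and 12.7% of all genes were. None had a count of 0 in all libraries. In HFD+EC359 their summed level remained below that in LFD. Of 6 epidermal markers, 4 were lower with HFD and 5 higher with EC359, against the same shares of all genes. Their summed levels were 170 to 182, 103 to 111 and 148 to 156 CPM in LFD, HFD and HFD+EC359. The part of these cells in the changes of these genes was not tested. In tumor RNA, fewer cells of a type and less RNA per cell cannot be told apart.

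Lama5 was the most abundant chain, at a mean of 348 FPKM (CPM divided by the gene length in kilobases) over all libraries, followed by Lamb1 at 216, Itga3 at 186, Itgb1 at 180 and Lamc1 at 126. Together Lama5, Lamb1 and Lamc1 are the chains of laminin-511, a broadly expressed basement membrane laminin. Lama5 was at 4749, 4580.3 and 4755 CPM in LFD, 3633, 3632 and 3648 in HFD, and 3564, 3611 and 3532 in HFD+EC359. All HFD and HFD+EC359 libraries were below all LFD libraries. The fold change was small and precise, 1.29-fold lower with HFD (-0.37, SE 0.0255, adjusted p = 1.18e-13). EC359 against HFD gave -0.03 (adjusted p = 0.474), which became 0.07 (adjusted p = 0.0324) with the GC and length trend removed. Lamb1 was lower in both comparisons by -0.09 (adjusted p = 0.010 and 0.0199). Both calls were lost with library totals as the scale (adjusted p = 0.173 and 0.137). That with HFD was also lost without HFD replicate 1 (adjusted p = 0.0548) and with the trend removed (adjusted p = 0.139), and that with EC359 without any of 5 libraries (HFD replicates 2 and 3 and all 3 of HFD+EC359, adjusted p = 0.0522 to 0.0892). Lamc1 was lower with HFD (-0.13, adjusted p = 0.000413) and gave 0.07 with EC359 (adjusted p = 0.103). It was called higher with EC359 with library totals as the scale (0.10, adjusted p = 0.0115) and with the trend removed (0.08, adjusted p = 0.0215). The same held with the 6 libraries of the comparison alone (0.06, adjusted p = 0.0118) and without LFD replicate 1 (0.07, adjusted p = 0.0110).

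Lama4 and Lama2 ran the other way. Lama4, the alpha chain of vessel wall laminin, was at 57.5, 54.6 and 61.5 CPM in LFD, 104, 107 and 110 in HFD, and 83.2, 82.7 and 79.3 in HFD+EC359. The 3 groups did not overlap. It was 1.85-fold higher with HFD (0.89, SE 0.0589, adjusted p = 4.33e-14), lower with EC359 (-0.39, SE 0.0514, adjusted p = 4.53e-07) and still above LFD (0.50, adjusted p = 1.35e-08). Lama2, the muscle laminin chain, was at 16.0, 15.7 and 18.9 CPM in LFD, 26.6, 24.9 and 23.9 in HFD, and 15.9, 15.01 and 15.5 in HFD+EC359. It was higher with HFD (0.58, adjusted p = 3.79e-05) and lower with EC359 (-0.70, adjusted p = 1.46e-06), and HFD+EC359 and LFD overlapped (-0.12, adjusted p = 0.369).

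The summed endothelial, fibroblast and muscle markers were also higher with HFD and lower with EC359, though not every gene of these lists was. Summed over 6 endothelial genes, levels were 210 to 222 CPM in LFD, 383 to 407 in HFD and 315 to 333 in HFD+EC359. All 6 were higher with HFD and 4 were lower with EC359, where 26.0% and 13.9% of all genes were. The 6 fibroblast genes summed to 5991 to 7061, 10327 to 10961 and 3213 to 3281 CPM, a sum carried mostly by Col1a1 and Col3a1. All 6 were higher with HFD, against the same 26.0% of all genes. With EC359, only Col1a1, Col3a1 and Lum were lower (Lum -1.08), where 13.9% of all genes were. Pdgfra was higher (0.34, adjusted p = 1.43e-09), where 12.7% of all genes were. Dcn (-0.12, adjusted p = 0.22) and Pdgfrb (-0.02, adjusted p = 0.785) passed no test with EC359. The 5 skeletal muscle genes summed to 89.4 to 94.8, 111 to 122 and 65.6 to 70.6. Of the 5, 3 were higher with HFD and 3 lower with EC359, against 26.0% and 13.9% of all genes. In each comparison the other 2 were not called. Each gene of these lists had counts. Their part in the changes of Lama4 and Lama2 was not tested.

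Lamb2 and Lamc3 are further laminin chains. Lamb2, the beta chain of vessel and muscle laminins, was lower with HFD (-0.17, adjusted p = 0.00201, turning to 0.04, adjusted p = 0.392, with the GC and length trend removed) and lower with EC359 (-0.28, adjusted p = 5.62e-06). Lamc3, a rarer gamma chain, was at 5.11, 3.61 and 1.94 CPM in LFD, 0.757, 0.131 and 0.545 in HFD, and 1.21, 1.13 and 1.70 in HFD+EC359, from 1 to 25 counts a library. It was lower with HFD (-2.82, SE 0.461, adjusted p = 5.12e-06). Its rise with EC359 (1.47, adjusted p = 0.0342) was lost without HFD replicate 2 (1.04, adjusted p = 0.191) or 3 (1.56, adjusted p = 0.0718), or without HFD+EC359 replicate 1 (1.54, adjusted p = 0.0565) or 3 (1.25, adjusted p = 0.152), and DESeq2 did not call it (adjusted p = 0.064).

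**Figure D3:**
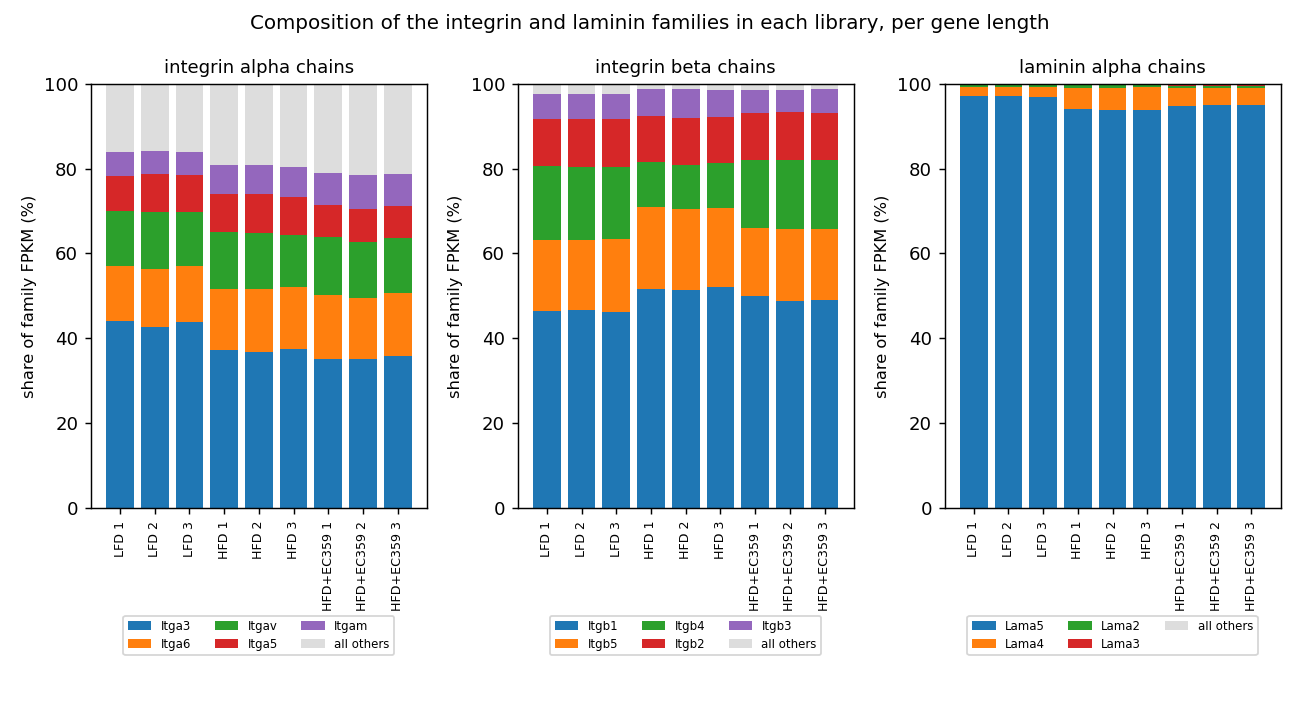
Share (y axis, %) of each chain in the summed FPKM of its family, in each of the 9 libraries (x axis), for integrin alpha, integrin beta and laminin alpha chains, with the leading chains in color and the rest in grey. Lama5 fills over 90% of the laminin alpha total in every library, and the Itgb4 band is narrowest in the 3 HFD libraries.

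Per gene length, the makeup of the families differed between groups. Lama5 made up 97.1% ± 0.111 of the laminin alpha chain total in LFD, 93.9% ± 0.0519 in HFD and 94.9% ± 0.0671 in HFD+EC359 (SD, n = 3). Lama4 made up 2.25% ± 0.0956, 5.19% ± 0.125 and 4.09% ± 0.0772, and Lama3 0.278% ± 0.0143, 0.146% ± 0.0283 and 0.480% ± 0.0481. Lamb3, a minor chain throughout, held 1.03% ± 0.0781 of the laminin beta total in LFD, 0.110% ± 0.0136 in HFD and 1.16% ± 0.179 in HFD+EC359. Among integrin beta chains, Itgb1 went from 46.4% ± 0.191 to 51.7% ± 0.359 with HFD while Itgb4 went from 17.2% ± 0.203 to 10.4% ± 0.0736, and with EC359 they stood at 49.3% ± 0.664 and 16.1% ± 0.238. Shares within a family sum to a constant, so that a change in 1 chain moves the others.

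The largest fall of a member with EC359 was that of a collagen-binding chain. Itga11, the collagen receptor of fibroblasts, was at 2.86, 1.88 and 1.94 CPM in LFD, 6.31, 5.50 and 5.59 in HFD, and 0.849, 2.60 and 1.70 in HFD+EC359. All HFD libraries were above all others. The LFD values rest on 14, 12 and 11 counts, and the HFD+EC359 values on 7, 23 and 17. It was 2.64-fold higher with HFD (1.40, SE 0.287, adjusted p = 0.000124) and 3.33-fold lower with EC359 (-1.74, SE 0.267, adjusted p = 5.68e-06), and HFD+EC359 against LFD gave -0.33 (interval -1.06 to 0.39, adjusted p = 0.431). Itga1, found on stromal and some immune cells, was instead highest in HFD+EC359, at 72.8 to 84.5 CPM in LFD, 88.3 to 96.1 in HFD and 122 to 127 in HFD+EC359. Its rise with EC359 was 0.42 (adjusted p = 7.75e-08), and that with HFD (0.25, adjusted p = 0.000685) fell to -0.002 (adjusted p = 0.98) with the GC and length trend removed. Itga10, a cartilage chain, was higher with HFD (0.67, adjusted p = 0.000281) and gave 0.06 with EC359 (adjusted p = 0.747). Itga2, an epithelial and platelet collagen receptor, was at 23.3 to 30.8 CPM with overlap in every comparison (adjusted p = 0.541, 0.693 and 0.233). Once the GC and length trend was removed, it was lower with HFD (-0.28, adjusted p = 0.0272) and in HFD+EC359 against LFD (-0.40, adjusted p = 0.00135).

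Genes for other ligands of integrins went in both directions. Of 18 that were tested, 9 were higher and 6 lower with HFD (26.0% and 25.8% of all genes were), and 7 were higher and 7 lower with EC359 (12.7% and 13.9% of all genes). Col1a1, an alpha chain of type I collagen, was at 4794, 3873 and 3968 CPM in LFD, 7095, 6885 and 6631 in HFD, and 1630.0, 1633 and 1575 in HFD+EC359. It was higher with HFD (0.71, adjusted p = 7.12e-15) and lower with EC359 (-2.09, adjusted p = 1.36e-27). Col3a1, the chain of type III collagen, followed it (0.98, adjusted p = 1.26e-21, and -1.98, adjusted p = 7.79e-30). Fn1, which encodes fibronectin, was higher in both (0.22, adjusted p = 2.92e-08, and 0.18, adjusted p = 3.21e-06). The same pair of collagen genes carried the sum of the fibroblast markers, of which Dcn (1.34), Pdgfra (0.56) and Pdgfrb (0.23) were higher in HFD+EC359 than in LFD. The part of fibroblasts in the change of Itga11 was not tested.

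**Figure D4:**
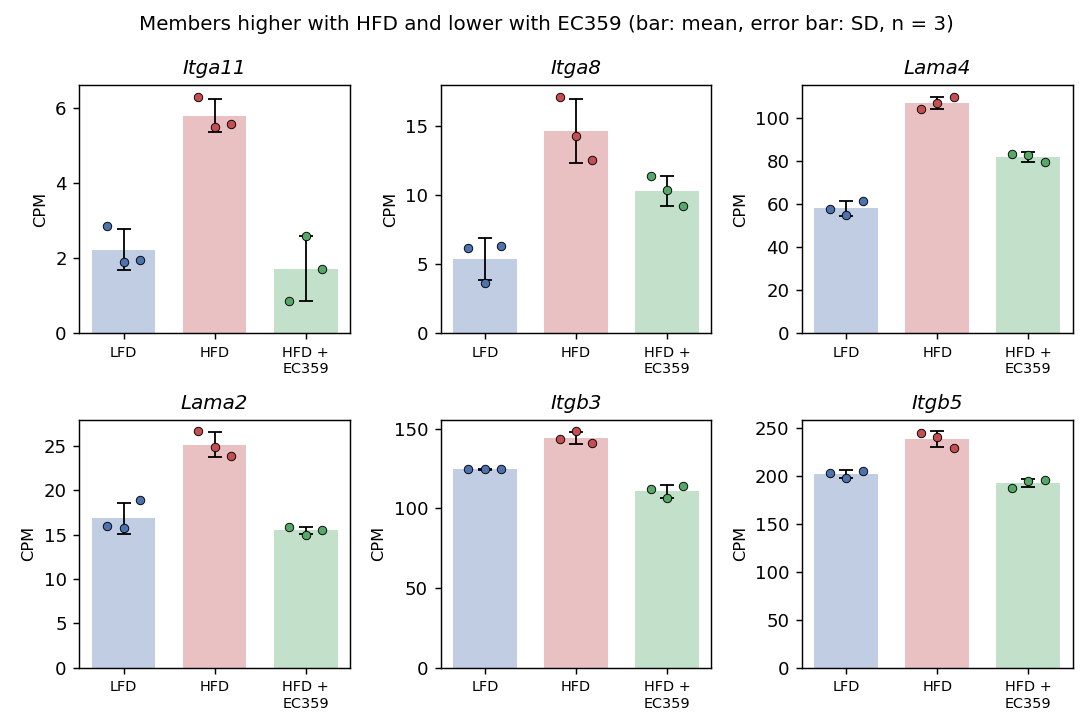
CPM (y axis, from 0) of 6 members that were higher with HFD and lower with EC359, in the 3 groups, with 1 point per library, bars for means and error bars for SD (n = 3). The HFD points lie above both other groups for each gene, and Itga8 and Lama4 in HFD+EC359 remain above LFD.

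The RGD-binding chains went in both directions. With HFD, 3 of 8 were higher and 4 lower, where 26.0% and 25.8% of all genes were, and with EC359, 1 was higher and 4 lower, where 12.7% and 13.9% of all genes were. Itga8, an alpha chain of smooth muscle and mesenchymal cells, was at 6.14, 3.61 and 6.34 CPM in LFD, 17.1, 14.3 and 12.5 in HFD, and 11.4, 10.4 and 9.20 in HFD+EC359. The groups did not overlap. It was 2.79-fold higher with HFD (1.48, SE 0.185, adjusted p = 5.05e-08). Its fall with EC359 (-0.52, adjusted p = 0.00694) was lost without HFD replicate 1 (-0.39, adjusted p = 0.0941) or HFD+EC359 replicate 3 (-0.44, adjusted p = 0.0508). Summed pericyte and smooth muscle markers were 117 to 122 CPM in LFD, 143 to 152 in HFD and 102 to 104 in HFD+EC359. Of the 5 genes, 3 were higher with HFD and lower with EC359 (Acta2, Rgs5 and Myh11), against the shares of all genes given above. Des was lower with HFD (-0.71, adjusted p = 2.01e-08), and Cspg4 passed no test. The part of these cells in the change of Itga8 was not tested.

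Itgb3 and Itgb5, the beta chains of the vitronectin receptors, rose and fell together in small steps. Itgb3 was at 124, 124 and 125 CPM in LFD, 143, 148 and 141 in HFD, and 112, 106 and 114 in HFD+EC359 (0.21, adjusted p = 0.000358, with HFD and -0.38, adjusted p = 5.13e-08, with EC359). The groups did not overlap. Itgb5 was at 198 to 205, 229 to 246 and 188 to 196 CPM (0.24, adjusted p = 1.84e-05, and -0.31, adjusted p = 3.92e-07). Itgb1, the beta chain shared by most matrix integrins, was at 703 to 721 CPM in LFD, 814 to 839 in HFD and 719 to 747 in HFD+EC359. Its rise with HFD (0.21, adjusted p = 1.20e-06) turned to -0.05 (adjusted p = 0.232) with the GC and length trend removed, and its fall with EC359 was -0.17 (adjusted p = 8.09e-05). Itgav, the alpha V chain, was lower with HFD (-0.25, adjusted p = 8.64e-07) and gave 0.07 with EC359 (adjusted p = 0.134). The latter was called with library totals as the scale (0.11, adjusted p = 0.0249) and with the 6 libraries of the comparison alone (0.07, adjusted p = 0.0409). It was also called without LFD replicate 1 (0.07, adjusted p = 0.0407). Itga5, the fibronectin receptor chain, was lower with EC359 (-0.22, adjusted p = 0.000168), and its fall with HFD (-0.18, adjusted p = 0.000971) turned to 0.01 (adjusted p = 0.815) with the trend removed.

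Itgb6 and Itgb8, whose pairs with alpha V bind latent TGF-beta, were rare. Itgb8 was at 4.501, 3.92 and 3.35 CPM in LFD, 0.757, 0.131 and 1.23 in HFD, and 1.58, 1.47 and 0.900 in HFD+EC359. The LFD libraries were above all others. It was lower with HFD (-2.45, SE 0.405, adjusted p = 6.03e-06, or -3.07 without HFD replicate 3), and EC359 against HFD gave 0.87 (interval -0.09 to 1.84, adjusted p = 0.184). Itgb6, an epithelial chain, had 10, 10 and 6 counts in LFD, 2, 8 and 0 in HFD, and 16, 21 and 12 in HFD+EC359. It was higher with EC359 (2.01, SE 0.533, adjusted p = 0.00451). Its fall with HFD (-1.78, adjusted p = 0.0142) was lost without HFD replicate 1 (-1.50, adjusted p = 0.0684) or 3 (-1.24, adjusted p = 0.0817). Without HFD replicate 2, the library with 8 counts, the changes were -3.39 with HFD (adjusted p = 0.00112) and 3.63 with EC359 (adjusted p = 0.000611). Itga2b, the platelet alpha IIb chain, was at 6.59 to 11.5 CPM in LFD, 6.81 to 7.31 in HFD and 7.999 to 9.14 in HFD+EC359. It passed no test (adjusted p = 0.0979, 0.287 and 0.619), but without LFD replicate 2 it was lower with HFD (-0.58, adjusted p = 0.00946). Summed platelet markers were 65.4 to 75.0, 46.2 to 51.1 and 37.2 to 40.0 CPM, with Gp9 under 3 counts in every library. Pf4 carried this sum, at means of 70.3, 47.5 and 37.6 CPM in LFD, HFD and HFD+EC359. Of the 4 platelet genes, 1 was tested, so the sum describes Pf4 only.

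Among leukocyte integrins, the alpha chains Itgal, Itgax and Itgam were higher in at least 1 comparison, while the common beta 2 chain passed no test as fitted. Itgal, the alpha chain of LFA-1, was at 45.8, 46.5 and 41.9 CPM in LFD, 61.9, 64.1 and 69.1 in HFD, and 69.9, 68.7 and 71.4 in HFD+EC359 (0.54, adjusted p = 1.25e-07, with HFD and 0.11, adjusted p = 0.205, with EC359). Itgax, the CD11c chain of dendritic cells and macrophages, was at 35.2, 32.5 and 33.3, then 44.8, 43.2 and 45.4, then 57.4, 61.9 and 59.6 CPM. Its groups did not overlap, and it was higher with HFD (0.40, adjusted p = 8.92e-05) and with EC359 (0.42, adjusted p = 1.32e-05). Itgam, the CD11b chain of myeloid cells, was higher with EC359 (0.21, adjusted p = 0.000682) and gave 0.07 with HFD (adjusted p = 0.265). Itgb2, which pairs with all of them, was at 116 to 119 CPM in LFD, 116 to 121 in HFD and 114 to 115 in HFD+EC359. Its differences were 0.02 (interval -0.08 to 0.12, adjusted p = 0.759), or 0.11 (adjusted p = 0.0467) with the GC and length trend removed, and -0.06 (interval -0.15 to 0.03, adjusted p = 0.357).

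Itga4 and Itga9, alpha chains that bind VCAM-1 among other ligands, were both higher with EC359 (0.36, adjusted p = 0.000765, and 0.28, adjusted p = 0.000107). Itga4 was at 19.8, 21.2 and 21.1 CPM in LFD, 31.4, 29.3 and 31.2 in HFD, and 40.4, 40.2 and 38.0 in HFD+EC359. Its rise with HFD (0.56, adjusted p = 1.23e-05) was not called with the GC and length trend removed (0.18, adjusted p = 0.148). Itgb7, which pairs with alpha 4 and alpha E, was lower with HFD (-0.71, adjusted p = 1.02e-05) and gave -0.09 with EC359 (adjusted p = 0.671). Itgae, the alpha E chain of intraepithelial lymphocytes and some dendritic cells, was at 7.98, 6.59 and 7.05 CPM in LFD, 2.77, 2.62 and 1.77 in HFD, and 4.85, 4.63 and 6.999 in HFD+EC359. The HFD libraries, with 22, 20 and 13 counts, were below all others. It was lower with HFD (-1.57, SE 0.247, adjusted p = 2.82e-06) and higher with EC359 (1.20, SE 0.239, adjusted p = 0.000223). HFD+EC359 against LFD gave -0.37 (adjusted p = 0.121), or -0.60 (adjusted p = 0.025) without HFD+EC359 replicate 3. Cdh1, which encodes E-cadherin, the epithelial ligand of alpha E beta 7, was at 27.4 to 29.0 CPM in LFD, 5.55 to 6.13 in HFD and 19.3 to 20.3 in HFD+EC359 (-2.27, adjusted p = 3.48e-16, and 1.75, adjusted p = 3.73e-13).

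Leukocyte markers moved with the drug too. The 4 general leukocyte genes summed to 351 to 360 CPM in LFD, 376 to 399 in HFD and 432 to 451 in HFD+EC359. Of the 4, 3 were higher with HFD and 3 with EC359, where 26.0% and 12.7% of all genes were. Coro1a was lower with HFD (-0.50, adjusted p = 1.35e-09), where 25.8% of all genes were, and gave 0.04 with EC359 (adjusted p = 0.629). The 6 macrophage genes summed to 1311 to 1344, 1248 to 1260 and 1579 to 1598 CPM. All 6 were higher with EC359, where 12.7% of all genes were. With HFD, Cd68, Csf1r and Emr1 were higher and Mrc1 lower (-0.36), where 26.0% and 25.8% of all genes were. The 5 neutrophil genes summed to 103 to 124, 131 to 143 and 165 to 171 CPM. Of the 5, 2 were higher with HFD and 4 with EC359, against 26.0% and 12.7% of all genes. S100a9 gave -0.08 with HFD (adjusted p = 0.403). T cell markers were near the detection limit at 4.58 to 8.399 CPM in sum over 5 genes. Of the 2 tested, Cd5, with 4 to 19 counts a library, was lower with HFD (-1.38, adjusted p = 0.00642), where 25.8% of all genes were. Cd3e gave -0.18 (adjusted p = 0.707), and neither was called with EC359. Their part in the changes of leukocyte integrins was not tested.

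Of 14 basement membrane genes, 7 were higher and 6 lower with HFD (26.0% and 25.8% of all genes were), and 1 was higher and 6 lower with EC359 (12.7% and 13.9% of all genes). Nid1, the nidogen that links laminin to collagen IV, changed most, at 79.6, 81.9 and 80.9 CPM in LFD, 168, 165 and 163 in HFD, and 93.3, 101.1 and 102 in HFD+EC359 (1.03, adjusted p = 1.87e-17, and -0.74, adjusted p = 8.0e-15). Hspg2, which encodes perlecan, was lower in both (-0.14, adjusted p = 1.52e-05, and -0.11, adjusted p = 0.00148). Agrn, which encodes agrin, was lower with HFD (-0.47, adjusted p = 2.17e-13) and gave -0.05 with EC359 (adjusted p = 0.345). Col4a1, a collagen IV chain, gave 0.03 with HFD (adjusted p = 0.54) and was lower with EC359 (-0.45, adjusted p = 3.34e-12). Of 25 integrin adaptors and kinases, 8 were higher and 9 lower with HFD, against the same 26.0% and 25.8% of all genes, and 3 were higher and 9 lower with EC359, against 12.7% and 13.9%. Tln1, the talin that activates integrins, was lower with HFD by little (-0.09, adjusted p = 0.00953), as was Actn1, an actin crosslinker (-0.21, adjusted p = 3.21e-06). Zyx, a focal adhesion protein, was lower in both (-0.35, adjusted p = 4.69e-10, and -0.16, adjusted p = 0.000721). Fermt1, the epithelial kindlin, changed most but was rare, at 0.785 to 2.66 CPM in LFD, 0.136 to 0.393 in HFD and 0.9998 to 2.06 in HFD+EC359 (-2.59, adjusted p = 0.00075, and 2.59, adjusted p = 0.000756).

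**Figure D5:**
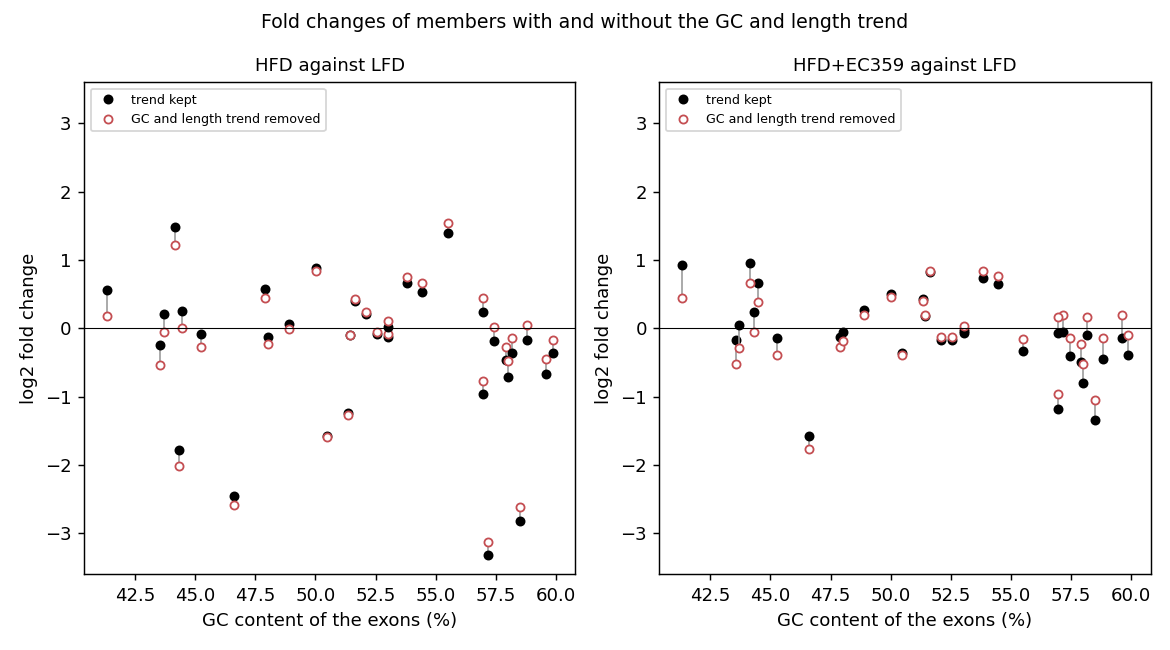
Log2 fold change (y axis) of 34 of the 35 tested members by the GC content of their exons (x axis, %), for the 2 comparisons with LFD, with filled points for the fit as described and open points after a trend with GC and length over all genes was removed. Members at high GC content move up and those at low GC content move down, and several near 0 change side (of those called with or without the trend, Itga1, Itga5, Itgb1 and Lamb2 in the left panel, Itgb1, Itgb4 and Itgb5 in the right), while Lamb3 in the left panel stays at -3.32 and -3.13.

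Small changes of members varied with their base composition. The exons of the tested members held 41.3% to 59.9% GC. Over all 13366 genes, Spearman's correlation of GC content with log2 fold change was -0.48 in HFD against LFD, -0.26 in HFD+EC359 against HFD and -0.55 in HFD+EC359 against LFD. Over the 35 members it was -0.33, -0.06 and -0.49. These correlations are across genes of the same libraries and describe them only. With the trend removed, Lamb3 was at -3.13 with HFD, Lama3 at -1.26, Itgb4 at -0.45, Itga11 at 1.54 and Lama4 at 0.84, each still past an adjusted p of 0.05.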

How the data were processed

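RNA of 9 tumors, 3 per group, was sequenced from stranded mRNA libraries with paired reads. The authors deposited estimated counts per gene for each library on mm9. The file headers name featureCounts 1.5.0-p1 with reverse strand, multi-mapped and overlapping reads counted, fractional counts and a mapping quality of at least 2; the submitters' processing notes name HISAT2 2.1.0, while the study's methods name TopHat2 and HTSeq. Because multi-mapped reads were shared out, chains with near copies are less certain. From 1.19% to 3.55% of genes had a fractional count, so counts were rounded. Totals were 5085357 to 9751201 counts, and limits of 3 counts cover counting error only. Intervals of fold changes come from the fit and include the spread between libraries of a group.

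Genes were filtered with filterByExpr, scaled by TMM and fitted with edgeR 4.0.16 (R 4.3.3), with its quasi-likelihood test in 1 model of 3 groups and Benjamini-Hochberg adjustment over 13366 genes, two-sided. SE is the fold change divided by the root of F. FPKM is CPM per kilobase of the gene length in the files. The fit was tested on simulated data. Alternatives were DESeq2 1.42.0, RLE factors, library totals, other filters, a replicate block, 6 libraries alone, leaving out each library, and removal of a spline trend (5 df) with GC and length. Genomic features were read from an mm9 genome and promoters from RefSeq (GRCm38.p6).

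The members and lists were chosen with earlier results of these data known. Named were members, and from each partner list the 3 genes with the highest mean CPM and the gene that changed most in each of HFD against LFD and HFD+EC359 against HFD. Marker lists were used as sums and as counts of called genes. Other single marker genes that are named were chosen after their values were seen. The values of 1 member are not reported here.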

Additional observations from a re-analysis of the deposited data

How the results depend on the processing

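Of 1766 values of members under an alternative, 1706 kept their side of the threshold, 22 gained a call, 30 lost one and 8, each called in at least 1 of the fits compared, reversed; 30 of 105 pairs of a member and a comparison had a change of either kind. Of the 1706, 16 that were called in neither fit changed sign (6 with the GC and length trend removed, 7 with library totals and 3 without 1 library). The 8 called reversals came with the GC and length trend removed: with HFD, Itga1 (-0.00195), Itga5 (0.0144), Itgb1 (-0.0494) and Lamb2 (0.0440), with EC359 against HFD, Lama5 (0.0691), and with HFD+EC359 against LFD, Itgb4 (0.193), Itgb5 (0.163, edgeR adjusted p = 0.000917) and Itgb1 (-0.292, adjusted p = 1.37e-09). Among members past the stricter limits, requiring at least 10 counts in every library left 4 with HFD, 3 with EC359 and 1 between HFD+EC359 and LFD, since fewer genes were tested, and removing the trend left 1 in the last. With library totals as the scale, 15 members were higher and 9 lower with EC359, against 12 and 11, and Itgb1 became a call between HFD+EC359 and LFD (0.12, adjusted p = 0.00157) while Itgb3 was lost (-0.09, adjusted p = 0.092). The cause of the other changes was not tested. With the replicate block, 12 members were higher, 18 lower and 9 past the stricter limits with HFD, 12, 11 and 6 with EC359, and 10, 12 and 3 between HFD+EC359 and LFD, and no member's call changed. No label says that the replicate numbers pair the samples. The 9 same-numbered correlations were -0.03 to 0.02. With libraries of a group this close to counting noise, such correlations cannot show whether the numbers share a batch. Depth limits the rare chains: Lamb3 in HFD, Itgae in HFD, Itga11 in LFD and HFD+EC359, Itgb6, Itgb8 and Lamc3 rest on 25 or fewer counts in each library.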

Other observations

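Several members are neighbors in the genome (mm9) and differed in their values. Itga2 (chromosome 13, 115626120 to 115722249) lies beside Itga1 (115748289 to 115892172) on the same strand. With EC359, Itga1 was higher by 0.42 on the log2 scale, and Itga2 gave -0.06. Itgam, Itgax and Itgad lie in a row on chromosome 7 (135206154 to 135349017, plus strand). Itgam and Itgax were both higher with EC359 (0.21 and 0.42), and Itgad had at most 3 counts in any library. The rise of Itgax between LFD and HFD+EC359 (0.83, edgeR adjusted p = 4.55e-11) was 1.78-fold and that of Itgam (0.27, adjusted p = 9.38e-06) 1.21-fold. The difference between neighbors was not tested.

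Schwann cells and adipocytes also make laminins and integrins. Summed over 4 Schwann cell genes, levels were 36.6 to 43.0 CPM in LFD, 30.5 to 35.6 in HFD and 23.1 to 26.7 in HFD+EC359. Summed over 5 adipocyte genes, levels were 7.98 to 10.0 CPM in LFD, 20.8 to 24.8 in HFD and 21.7 to 25.6 in HFD+EC359. Of these, 3 were tested and 1 was higher with HFD, where 26.0% of all genes were. It was Fabp4 (1.66, edgeR adjusted p = 5.62e-11), which endothelium also expresses. Cidec (adjusted p = 0.76) and Plin1 (adjusted p = 0.718) were not called with HFD. Between HFD+EC359 and LFD, 2 of the 3 were higher, where 29.2% of all genes were. They were Fabp4 (1.62, adjusted p = 3.70e-11) and Plin1 (1.24, adjusted p = 0.0188).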
